A study of Mus musculus with 45 samples.

Results

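The cytosolic ribosome is built from ribosomal RNA and a large set of proteins that are needed in equal numbers, and the 80 mouse genes described here encode these proteins. They were taken by name, as the gene symbols that begin with Rpl or Rps and carry a number with at most 1 further letter (a, l, x or y), together with Rplp0, Rplp1, Rplp2 and Rpsa and without Rpl22l1. All 80 varied in both RNA-seq tables of the study, among 21979 varying genes in 1 table and 22048 in the other, of 33924 listed in each. Proteins of the large subunit account for 48 of the genes and proteins of the small subunit for 32. The rule reads names and no measured value, but it was set with earlier results of these data known.

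The RNA-seq samples were 24 mouse embryonic stem cell (mESC) cultures of strain 129 in 8 groups of 3, and the study used them to ask what the long non-coding RNA 5430416N02Rik does in these cells. In PG lines (ΔPG in the study) the promoter and gene body of 5430416N02Rik were replaced by a puromycin cassette, and in G lines (ΔG) the gene body was replaced by a cassette of GFP and puromycin resistance. The study's growth medium for mESCs held LIF and its plates had no feeder cells. Whether LIF was present during the treatment is not stated in the sources used here. Each line was heterozygous (het) or homozygous (hom) and was given DMSO (labelled ES) or 2 µM retinoic acid (RA) for 48 h. Thus each group carries a deletion on at least 1 allele and a resistance gene, and an unedited line was not among the RNA-seq groups. Which clone gave each library is not stated in the sources used here, so clone and genotype cannot be told apart. The study describes its RNA-seq replicates as biological, and p-values measure only the spread between these samples.

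Ribosomal protein genes are transcribed at high levels in dividing cells, and their mRNAs carry a 5′ terminal oligopyrimidine tract (TOP) through which the mTOR pathway controls their translation. Early-embryonic cells divide fast and need many ribosomes. A few of the genes have a close paralog of restricted expression. Rpl10l and Rpl39l are autosomal relatives of the X-linked genes Rpl10 and Rpl39 and are known for expression in male germ cells, Rpl3l is known from heart and skeletal muscle, and Rps27l is a target of p53.

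The start sites of some of these genes are shown first, including those of paralogs and their parent genes. RefSeq promoter windows were found for 59 of the 80 genes. Those of Rplp2, Rpl28, Rpl35a and Rps27 were picked as examples with CTTTC at the start, and parents and paralogs described later follow. Where a gene had more than 1 RefSeq start, the start with the most CTTTC matches is printed (Rpl35a has 3 starts and Rps27l 2). Each line covers 20 bases before and 10 bases after the RefSeq start on the gene's strand (GRCm38.p6), and capitals mark the letters CTTTC.
Rplp2 (chr7:141447631-141447660, plus strand): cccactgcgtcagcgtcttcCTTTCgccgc
Rpl28 (chr7:4792945-4792974, plus strand): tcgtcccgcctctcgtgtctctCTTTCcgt
Rpl35a (chr16:33056462-33056491, plus strand): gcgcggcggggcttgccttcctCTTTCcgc
Rps27 (chr3:90213639-90213668, minus strand): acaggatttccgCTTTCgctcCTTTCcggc
Rps27l (chr9:66946066-66946095, plus strand): cctctccactcctccccgccgcctctatcc
Rpl10 (chrX:74270796-74270825, plus strand): ctatggttgttacagtggaagataggccgc
Rpl10l (chr12:66284392-66284421, minus strand): agaaatttggcctccattttgcggctggcg
Rpl39 (chrX:37085213-37085242, minus strand): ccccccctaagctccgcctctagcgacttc
Rpl39l (chr16:10170208-10170237, plus strand): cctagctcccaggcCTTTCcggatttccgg

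The letters CTTTC stood within 50 bases of the start, on the gene's own strand, in 32 of the 59 genes (54.2%), against 14.6% of the 27025 mouse genes with a window. On the opposite strand the shares were 11.9% and 13.8%. The letters CCGGAAG, the core that ETS family factors bind, were present in the whole 300-base window on the gene's strand in 25.4% of the genes against 5.4% of all genes, and on the opposite strand in 16.9% against 5.4%. None of the 31 CCGGAAG matches overlapped a CTTTC match on either strand. These are matches of letters and not measured binding sites. Of the pairs printed above, Rps27 had CTTTC 2 times in its 30 bases and Rps27l 0 times, Rpl39l had it 1 time and Rpl39 0 times, and neither Rpl10 nor Rpl10l had it.

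The libraries were checked before the ribosomal genes were compared. The targeted 5430416N02Rik was lower in hom than in het samples by a log2 difference of -2.30 (PG, ES), -1.81 (PG, RA), -2.79 (G, ES) and -2.75 (G, RA). The stem cell marker Pou5f1 lay between 11.268 and 11.832 on the rlog scale (the authors' regularized log2 of the counts) in all ES samples and between 7.469 and 7.947 in all RA samples, while Cyp26a1, an RA-induced enzyme that degrades RA, lay between 3.837 and 5.279 in ES and between 9.376 and 10.102 in RA. The 3 PG ES het libraries stood apart. Their median over 12 mitochondrially encoded genes was 8.56 to 8.68, against 10.13 to 10.50 in the other PG libraries, and their deviation from the table's mean rose with the GC content of genes (r across genes 0.333 to 0.339, against -0.292 to -0.0238 in the others). Results that rest on them are RA in het PG, genotype of PG in ES, the PG interaction and each mean over both PG genotypes or both PG treatments. They are marked as such, and the part of these libraries in them was not tested. The deviation from the table's mean also followed gene length, and its sign went with treatment. With log2 length, r across genes was -0.222 to -0.145 in all ES libraries of PG and G. It was 0.151 to 0.217 in all RA libraries. The part of gene length in the RA differences was not tested.

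RA lowered the ribosomal protein genes as a group. In hom PG, 79 of 80 were lower in RA than in ES and 0 were higher, where 21.9% of all genes tested were lower and 26.9% higher. In het G 79 were lower and 0 higher, against 21.8% and 28.4% of all genes, and in hom G 79 were lower and 0 higher, against 21.8% and 27%. A gene passed at a Benjamini-Hochberg adjusted p under 0.05 in limma, and the single gene that did not pass in these 3 lines was Rpl3l, which was low in every library (rlog 1.447 to 2.32 over both tables). The median log2 difference over the 80 genes was -0.73 in hom PG, -0.61 in het G and -0.70 in hom G, or 0.604, 0.657 and 0.617 times the ES level, while the median over all genes tested was 0.01, 0.04 and 0.02. Other highly expressed genes (mean rlog of at least 10) were also mostly lower, in 227 of 325, 230 of 348 and 232 of 348 cases, with medians of -0.29, -0.28 and -0.28. In bulk samples fewer cells of a type and less RNA per cell cannot be told apart, and rlog values are relative to the rest of each library.

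Markers of cell types moved under RA in the same samples. All 7 stem cell markers were lower in RA in each of the 4 lines, and all 5 markers of extraembryonic endoderm (Gata4, Gata6, Sox17, Sox7 and Foxa2) were higher. The mean rlog over the 5 endoderm markers was 2.77 to 3.14 in PG ES samples and 5.18 to 5.71 in PG RA samples, and 2.86 to 3.11 and 5.69 to 5.86 in G. Of 4 fibroblast markers, Col1a1, Col1a2 and Pdgfra were higher in each line. Thy1 was lower in het PG, hom PG and het G and did not pass in hom G. The mean over the 4 was 3.45 to 3.77 in PG ES, 5.91 to 6.19 in PG RA, 3.07 to 3.38 in G ES and 5.63 to 6.38 in G RA. The part of a change in cell types in the fall of the ribosomal protein genes was not tested.

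The fall was of similar size across the group. The middle 50% of the genes ran from -0.84 to -0.63 in hom PG, from -0.71 to -0.46 in het G and from -0.78 to -0.56 in hom G. Large-subunit genes had medians of -0.74, -0.61 and -0.72 and small-subunit genes of -0.69, -0.57 and -0.67 in the same lines. Genes that fell by more than 1 on the log2 scale numbered 5, 2 and 4. With an adjusted p under 0.1 and a log2 difference over 0.5, 72, 55 and 67 genes were lower (11.3%, 11.7% and 12.1% of all genes) and 0 higher in each line (16.5%, 17.7% and 17%). The size depended on the scaling. Removal of a trend with gene length also brought the 3 medians nearer to 0, with values in the closing section. After quantile normalization the 3 medians were -0.35, -0.26 and -0.37, with 74, 71 and 72 genes lower and 1, 2 and 1 higher, and among the genes named here Rps6 changed sign in all 3 lines, Rpl10 in het G and Rpsa in hom G.

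**Figure D1:**
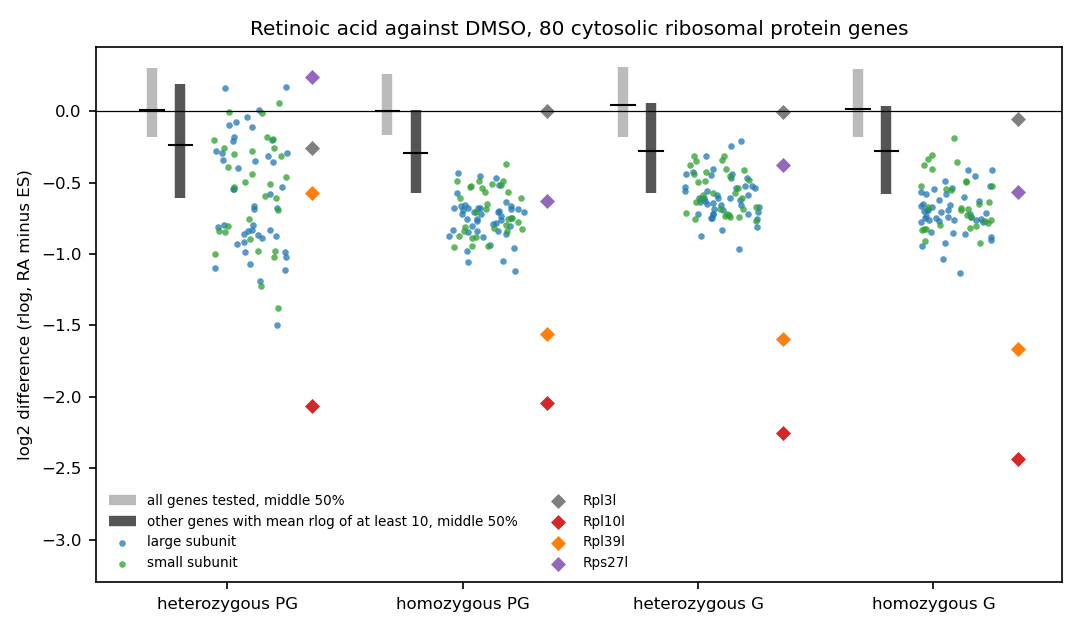
RA minus ES difference (log2, rlog values) of each of the 80 genes in the 4 lines, with large-subunit genes in blue, small-subunit genes in green and the 4 paralogs as diamonds; grey bars span the middle 50% of all genes tested (light) and of other genes with a mean rlog of at least 10 (dark), with the median as a black line. In het PG the points spread from -2.07 to 0.24, and in the other 3 lines all but the paralogs lie between -1.13 and -0.18.

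Rpl12, a protein at the base of the ribosomal stalk, fell most among the genes outside the paralogs in hom PG, het G and hom G. It read 12.719, 12.747 and 12.703 in PG ES hom and 11.577, 11.619 and 11.627 in PG RA hom. In G it read 12.819, 12.809 and 12.848 in ES het, 11.864, 11.81 and 11.907 in RA het, 12.683, 12.69 and 12.665 in ES hom and 11.531, 11.561 and 11.555 in RA hom. Every RA sample lay below every ES sample of its line. The log2 differences were -1.12 ± 0.02 (SE) in hom PG (limma adjusted p = 5.41e-15), -0.97 ± 0.02 in het G (adjusted p = 4.2e-25) and -1.13 ± 0.02 in hom G (adjusted p = 8.28e-27).

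The 3 ribosomal protein genes that are often taken as references for qPCR moved with the group. Rplp0, the stalk protein that anchors Rplp1 and Rplp2, fell by 0.70 in hom PG, 0.44 in het G and 0.76 in hom G on the log2 scale. Rpl13a, a large-subunit protein with a role in translational silencing, fell by 0.98, 0.72 and 0.88. Rps18, in the small-subunit head, fell by 0.89, 0.73 and 0.73, each with a standard error of at most 0.03. The other stalk proteins, Rplp1 and Rplp2, fell by 0.88, 0.61 and 0.74 and by 0.79, 0.75 and 0.92. Rpsa, the laminin receptor homolog, and Rps6, the target of S6 kinase, were among the smaller falls, with -0.49, -0.31 and -0.35 for Rpsa and -0.37, -0.34 and -0.30 for Rps6.

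Rpl5 and Rpl11, which with 5S rRNA form the particle that binds Mdm2, and Rpl23, which also binds Mdm2, fell in all 3 lines. The log2 differences were -0.84, -0.72 and -0.76 for Rpl5, -0.66, -0.43 and -0.54 for Rpl11 and -0.76, -0.68 and -0.73 for Rpl23. The 19 genes mutated in Diamond-Blackfan anaemia were lower in 19, 19 and 19 cases, where 79 of the 80 genes were lower in each line. Of all genes tested 21.9%, 21.8% and 21.8% were lower. All 4 X-linked genes fell in each of these lines as well, with the order of the differences running from Rpl10 at -0.52 to Rpl39 at -1.05 in hom PG.

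The genes responded in a similar order in hom PG, het G and hom G. Over the 76 genes without the 4 paralogs, the RA difference in hom PG correlated with that in het G at r = 0.87 (Spearman's rho 0.861) and with that in hom G at r = 0.832 (rho 0.814), and the G lines correlated at r = 0.775 (rho 0.795). These values are descriptions across genes, which are not independent replicates. The lines share no samples, but the G lines share 1 rlog table, and all genes share library preparation and base composition. The RA difference in het PG, which rests on the libraries that stood apart, correlated with those in hom PG, het G and hom G at r = 0.077, 0.165 and 0.11.

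**Figure D2:**
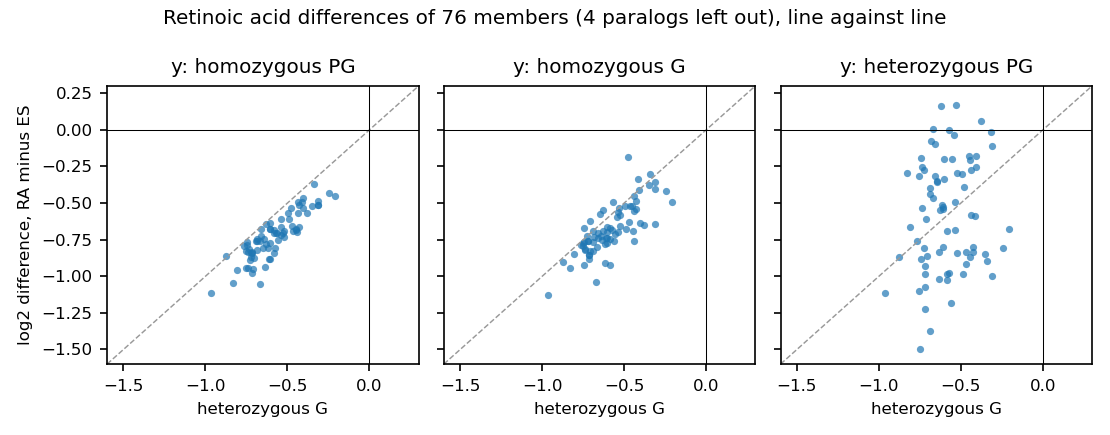
RA minus ES difference (log2) of 76 ribosomal protein genes in het G (x axis) against hom PG, hom G and het PG (y axes); each point is a gene and the dashed line marks equal differences. Points follow the line in the first and second panels (r = 0.87 and 0.775) and scatter in the third (r = 0.165).

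In het PG, RA lowered 71 genes (23.1% of all genes tested were lower) and raised 3 (28.4% were higher), with a median of -0.56 and a middle 50% from -0.87 to -0.27. Of 325 other genes with a mean rlog of at least 10, 192 were lower and 103 higher, with a median of -0.24. Rps27l rose by 0.24, Rpl31 by 0.17 and Rpl35a by 0.16, and Rpl23a, Rpl39, Rpl3l, Rps21, Rps26 and Rps29 did not pass. With the limit of 0.5 on the difference, 45 were lower (13.6% of all genes) and 0 higher (18%). Rplp2 read 12.109, 12.037 and 12.064 in ES and 10.564, 10.563 and 10.602 in RA, a difference of -1.49 ± 0.03 (SE), and Rps2 had -1.38 ± 0.03. The differences followed the GC content of the mRNA. Their median was -0.342 in the 26 genes of lowest GC content (41.3% to 49.6%), -0.595 in the middle 24 and -0.819 in the 26 of highest (53.4% to 60.9%), while in hom PG the same groups had -0.784, -0.675 and -0.704. Whether the GC dependence of the ES het libraries accounts for this was not tested. After quantile normalization the median in het PG was -0.271, with 53 genes lower and 14 higher, and after removal of a length trend it was -0.345, with 59 lower and 13 higher; Rpl5 and Rps4x (after quantile normalization) and Rpl10, Rpl23 and Rps27 (after either) changed sign.

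Genes that make ribosomes fell with the ribosomal proteins under RA. Of 13 RNA polymerase I genes, 9 were lower in hom PG, 11 in het G and 10 in hom G and 0 higher in each, where 21.9%, 21.8% and 21.8% of all genes tested were lower and 26.9%, 28.4% and 27% higher. Among them Rrn3, the initiation factor that recruits the polymerase to rDNA, had -1.17, -1.32 and -1.24. Of 39 snoRNP and rRNA processing factors 34, 36 and 33 were lower and 0, 1 and 0 higher, with Rrp9, a U3 snoRNP protein, at -1.22, -1.35 and -1.27. Large-subunit assembly factors were lower in 35, 35 and 34 of 38 cases and small-subunit assembly factors in 17, 19 and 18 of 19, with 0 higher in each line. Of 21 other translation genes with TOP mRNAs 19, 17 and 20 were lower and 1, 3 and 1 higher. The 74 mitochondrial ribosomal protein genes, a list chosen after their values were seen, were lower in 63, 55 and 58 cases and higher in 0, 4 and 2, with medians of -0.46, -0.45 and -0.47. Fau, which encodes a small-subunit protein fused to a ubiquitin-like domain and has no Rps name, fell by 0.69, 0.67 and 0.73.

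The paralogs fell more than their parent genes, or less, each in its own way. Rpl10l (chr12:67384368-67385388 in NCBI37/mm9, minus strand, 1 exon) shares 84.8% of its coding bases with Rpl10 (chrX:71516151-71518474). In PG it read 8.406, 8.492 and 8.367 in ES het, 8.452, 8.405 and 8.4 in ES hom, 6.419, 6.217 and 6.431 in RA het and 6.456, 6.46 and 6.211 in RA hom. In G it read 8.312, 8.401 and 8.458 in ES het, 8.917, 8.831 and 8.766 in ES hom, 6.207, 5.916 and 6.295 in RA het and 6.242, 6.485 and 6.483 in RA hom. All 12 RA samples lay below all 12 ES samples, the groups did not overlap, and PG ES het and PG ES hom read alike. The RA difference was -2.04 ± 0.07 (SE) in hom PG, -2.25 ± 0.09 in het G and -2.43 ± 0.09 in hom G, against -0.52, -0.31 and -0.65 for Rpl10. In het PG, where the ES libraries stood apart, it was -2.07 ± 0.07 against -0.11.

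The difference between paralog and parent was tested within each sample. The log2 value of Rpl10l minus Rpl10 changed by -1.742 on average over both PG genotypes and by -1.863 over both G genotypes under RA (exact permutation test of RA against ES within genotype, two-sided p = 0.005 each, the smallest that 400 arrangements allow, adjusted p = 0.00889 over 16 such tests). The PG mean was made up of -1.957 in het, which includes the ES libraries that stood apart, and -1.527 in hom. Rpl39l (chr16:10170319-10175004, NCBI37/mm9), with 85.3% of coding bases shared with Rpl39, also fell further than its parent. It had RA differences of -1.56 ± 0.08 in hom PG, -1.59 ± 0.09 in het G and -1.67 ± 0.09 in hom G, against -1.05, -0.67 and -1.04 for Rpl39. Rpl39l minus Rpl39 changed by -0.544 in PG and -0.777 in G (exact permutation p = 0.005 each, adjusted p = 0.00889). The PG mean was made up of -0.582 in het, again with the ES libraries that stood apart, and -0.507 in hom. In het PG Rpl39l had -0.58 and Rpl39 0.01.

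Rps27l (chr9:66793893-66797323, NCBI37/mm9) did not follow this pattern. Rps27l minus Rps27 changed under RA by 0.236 over the PG genotypes (exact permutation p = 0.02, adjusted p = 0.0267), made up of 0.418 in het and 0.054 in hom, and by 0.014 in G (exact permutation p = 0.775). The PG value includes the ES het libraries that stood apart. After RA, Rps27l was lower in hom PG (7.999, 7.968 and 8.045) than in het PG (8.29, 8.268 and 8.235), with groups that did not overlap and a difference of -0.26 ± 0.04 (limma adjusted p = 0.0028). Trp53, which encodes p53, was also lower in hom in these samples, at 6.064, 6.19 and 5.865 in het and 4.058, 3.564 and 3.879 in hom. In the ES state of PG, which rests on the libraries that stood apart, the genes went in opposite directions, with Trp53 lower in hom by a log2 difference of -3.02 (limma adjusted p = 1.06e-09) and Rps27l higher by 0.61 (adjusted p = 7.71e-08). In G, Trp53 lay between 2.166 and 2.881 in all 12 samples and Rps27l after RA differed by -0.03 ± 0.06 between genotypes (limma adjusted p = 0.853). The part of Trp53 in the Rps27l values was not tested.

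**Figure D3:**
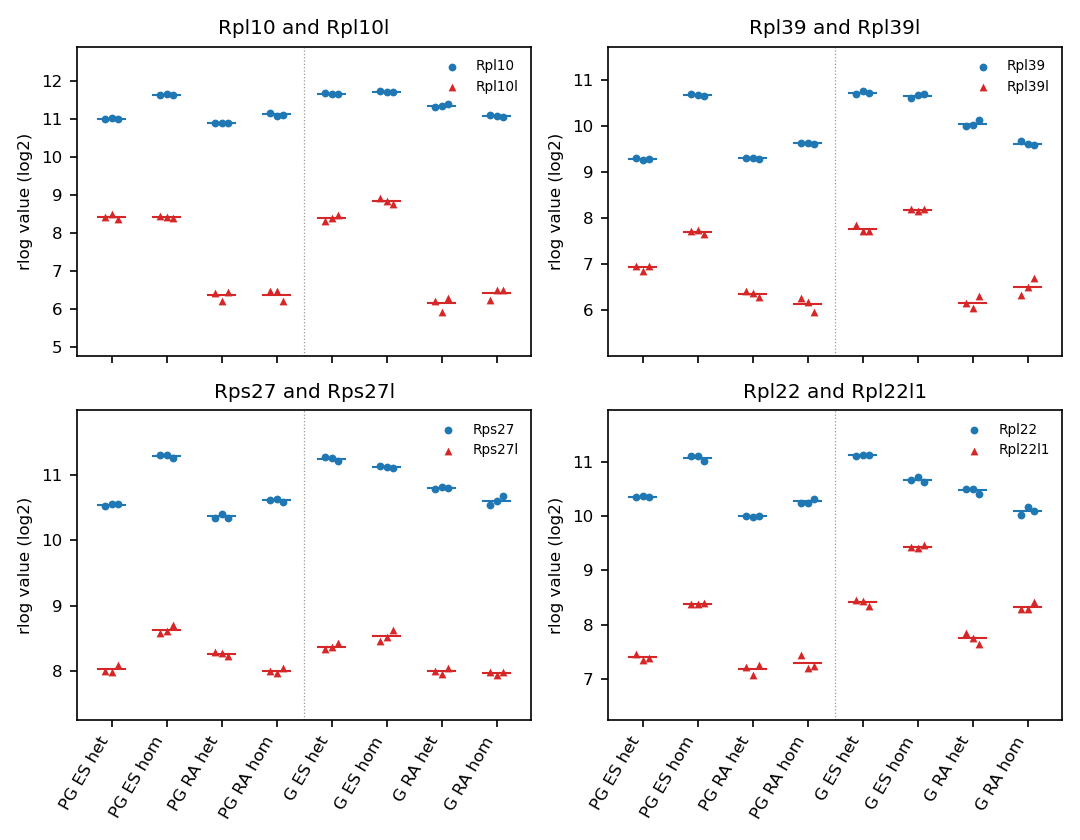
rlog values (log2) of Rpl10 and Rpl10l, Rpl39 and Rpl39l, Rps27 and Rps27l, and Rpl22 and Rpl22l1 in the 8 groups; each symbol is a sample, lines are means of 3, the y axes differ between panels, and the dotted line parts the separately transformed PG and G tables. Rpl10l drops by about the same amount in every line under RA, and Rpl22l1 is higher in hom than in het G while Rpl22 is lower.

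After RA, the hom and het lines differed in opposite directions in PG and G. In hom PG 74 of the 80 genes were higher than in het PG and 1 was lower, where 2.09% of all genes tested were higher and 1.9% lower. In hom G 70 were lower than in het G and 1 was higher, where 5.15% of all genes were lower and 3.95% higher. The median difference was 0.24 in PG (middle 50% 0.21 to 0.29) and -0.20 in G (-0.24 to -0.14), or 1.18 and 0.874 times the het level. Other genes with a mean rlog of at least 10 had medians of 0.04 and 0.02, with 85 of 325 higher and 34 lower in PG and 75 of 348 higher and 72 lower in G. Of the 80 genes, 69 were both higher in hom PG and lower in hom G. The share of all genes tested that did both was not counted. The PG and G libraries are separate tables, and the 2 comparisons share no samples.

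The differences were small but larger than the spread between replicates. The median over the 80 genes was 10.84 to 10.86 in the 3 PG RA het samples and 11.03 to 11.09 in the 3 PG RA hom samples, and 11.26 to 11.29 in G RA het against 11.08 to 11.13 in G RA hom. Without the 4 paralogs, all 76 genes had PG RA hom samples above all PG RA het samples, where 9.93% of all genes tested did. With the limit of 0.5 on the log2 difference 1 gene was higher in PG (Rps16, against 0.309% of all genes) and 0 lower (0.66%), and in G 0 were higher (0.676%) and 0 lower (1.46%). Refitting without the 3 PG ES het libraries, an alternative chosen after the data were seen, left 73 higher and 1 lower. The median of the mitochondrially encoded genes moved in the same direction as the ribosomal protein genes, at 10.13 to 10.18 in PG RA het and 10.22 to 10.40 in PG RA hom, and at 10.66 to 10.68 in G RA het and 10.46 to 10.54 in G RA hom. Its part in the ribosomal protein values was not tested. Trp53 differed between hom and het after RA by -2.21 in PG (limma adjusted p = 3.65e-07). In G, where Trp53 was low in all samples, it differed by 0.28 (limma adjusted p = 0.365). The part of Trp53 in the ribosomal protein values was not tested either.

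Some cell type markers also differed between the genotypes after RA. Of the 5 endoderm markers Gata4 alone passed, and it was lower in hom in both PG (-0.80) and G (-0.48). The mean rlog over the 5 was 5.67 to 5.71 in PG RA het and 5.18 to 5.38 in PG RA hom, and 5.84 to 5.86 and 5.69 to 5.83 in G. Of the 4 fibroblast markers 0 passed in PG, and in G Col1a2 (-1.41) and Pdgfra (-0.66) were lower in hom. Their list means were 5.99 to 6.09 and 5.91 to 6.19 in PG RA het and hom, and 6.29 to 6.38 and 5.63 to 5.91 in G. Among the 7 stem cell markers Klf4 was lower (-0.61) and Sox2 higher (0.42) in hom PG, and Sox2 was lower in hom G (-0.26), with list means of 6.72 to 6.75 and 6.65 to 6.75 in PG and 6.56 to 6.68 and 6.49 to 6.64 in G. Of the 5 RA response markers Hoxb1 was higher in hom PG (0.57) and Stra8 in hom G (0.41). The part of these differences in the ribosomal protein values was not tested.

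**Figure D4:**
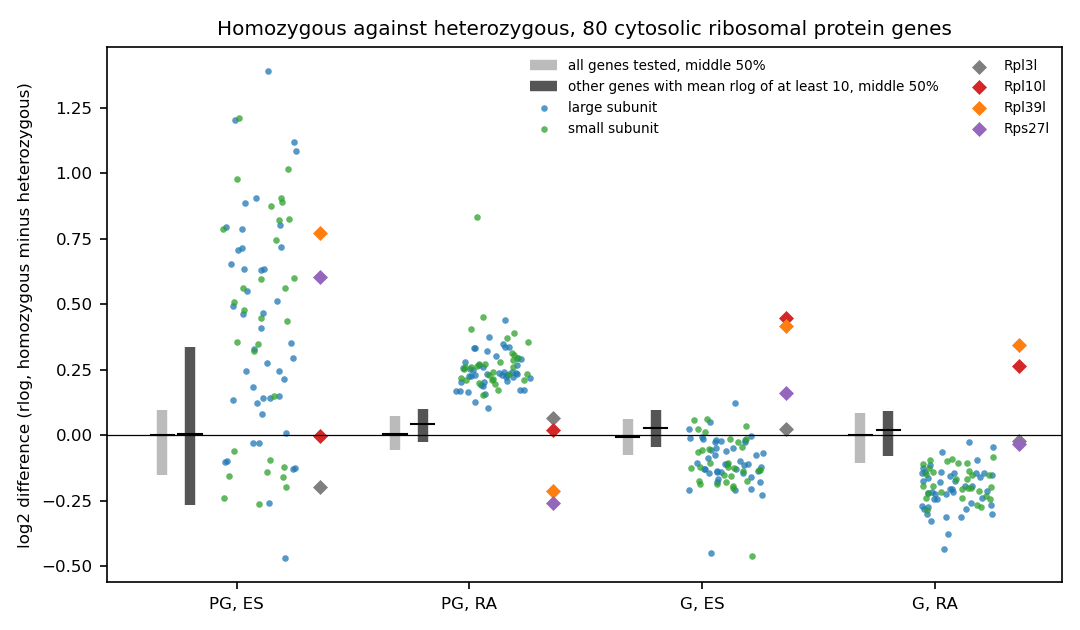
Hom minus het difference (log2, rlog values) of each of the 80 genes in PG and G, in ES and RA, with the symbols and grey bars of the plot of RA differences. After RA the points of PG lie above 0 and those of G below 0, apart from some of the paralogs.

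Among single genes, Rplp0 read 11.382, 11.391 and 11.432 in PG RA het and 11.814, 11.857 and 11.857 in PG RA hom, a difference of 0.44 ± 0.02 (SE; limma adjusted p = 8.68e-08). In G it read 12.063, 12.096 and 12.183 in RA het and 11.782, 11.778 and 11.795 in RA hom, a difference of -0.33 ± 0.02 (adjusted p = 3.04e-11). Rps12, a small-subunit protein linked to cell competition in flies, was higher in hom by 0.45 in PG and differed by -0.28 in G. Rps16 had the largest PG difference, 0.83 ± 0.04, with 8.912, 8.904 and 8.963 in het and 9.759, 9.771 and 9.75 in hom. Rps16 (chr7:29135671-29137715, NCBI37/mm9) has 3 intronless copies of at least 95% identity in the genome, and the row of the copy Rps16-ps2 differed by 0.90 in the same comparison, so how reads were split between them is uncertain. Rpl39 had the largest fall in G, from 9.999, 10.018 and 10.125 in het to 9.665, 9.593 and 9.582 in hom (-0.43 ± 0.04, adjusted p = 3.97e-09). The genes that did not pass in PG were Rpl10l, Rpl27, Rpl32, Rpl39l and Rpl3l.

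Rpl39l went against the group in G. After RA, Rpl39l was higher in hom G (6.339, 6.496 and 6.7) than in het G (6.151, 6.043 and 6.303), by 0.35 ± 0.09 (limma adjusted p = 0.0117). This call was lost without G RA het replicate 2 (0.284, adjusted p = 0.0897) or G RA hom replicate 3 (0.252, adjusted p = 0.108). Rpl39l minus Rpl39 was higher in hom than in het G by 0.634 over ES and RA together and lower by a mean difference of -0.581 in PG, and Rpl10l minus Rpl10 gave 0.471 in G (exact permutation p = 0.005 each, adjusted p = 0.00889) and -0.418 in PG (exact permutation p = 0.01, adjusted p = 0.0145). The PG values include the ES het libraries that stood apart.

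In the ES state of G, most of the genes that differed between genotypes were again lower in hom. In hom G 44 were lower than in het G (2.96% of all genes) and 3 higher (2.15%), with a median of -0.11, and with the limit of 0.5 none was higher (0.426%) or lower (0.785%). The higher genes were Rpl10l (0.45), Rpl39l (0.42) and Rpl7a (0.12), and the lowest were Rps16 (-0.46), Rpl22 (-0.45) and Rpl26 (-0.23). For Rps16 the values were 10.634, 10.692 and 10.684 in het and 10.223, 10.25 and 10.155 in hom, with no overlap. Rps16 and Rpl7a have 3 and 31 intronless copies of at least 95% identity in the genome, so how their reads were split is uncertain. The count of lower genes depended on the scaling, with 26 after quantile normalization. The mitochondrially encoded genes moved in the same direction, at 10.69 to 10.73 in G ES het and 10.49 to 10.51 in G ES hom, and their part was not tested. The difference between the genotype effects in RA and ES passed for 22 of the 80 genes in G, 21 with a lower effect in RA (1.56% of all genes) and 1 with a higher effect (1.78%), with a median of -0.083, and with the limit of 0.5 none passed (1.19% higher and 1.18% lower). After removal of the length trend the median was -0.045 with 5 genes higher, and after removal of both the GC and length trends -0.052 with 5 higher. Rpl39 (-0.37), Rps20 (-0.34) and Rpl10 (-0.33) had the largest negative values, and Rps16 (0.295) was the positive one. Of 348 other genes with a mean rlog of at least 10, 42 had a higher effect in RA and 53 a lower one.

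Rpl22 and its paralog outside the name pattern, Rpl22l1, moved in opposite directions between the G genotypes. Rpl22 protein is known to bind and repress Rpl22l1 mRNA. Rpl22 (chr4:151699851-151708180, NCBI37/mm9) read 11.105, 11.123 and 11.13 in G ES het and 10.657, 10.72 and 10.628 in G ES hom, and Rpl22l1 read 8.46, 8.438 and 8.348 in het and 9.429, 9.404 and 9.475 in hom. Neither gene overlapped between the groups. Rpl22 was lower by -0.45 ± 0.04 (limma adjusted p = 2.02e-09) and Rpl22l1 higher by 1.02 ± 0.06 (adjusted p = 1.66e-12). After RA the differences were -0.38 for Rpl22 (adjusted p = 4.99e-08) and 0.58 for Rpl22l1 (adjusted p = 1.14e-07).

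Rpl22l1 minus Rpl22 was higher in hom than in het G by 1.472 in ES and 0.96 in RA (mean 1.216, exact permutation p = 0.005, adjusted p = 0.00889). This pair was chosen after values were seen, so its exact permutation p-values are not those of a planned test. In PG the mean difference was 0.055 (exact permutation p = 0.545), made up of 0.264 in ES, which includes the het libraries that stood apart, and -0.154 in RA. In PG ES both genes were higher in hom, Rpl22 by 0.72 (limma adjusted p = 2.41e-10) and Rpl22l1 by 0.98 (adjusted p = 4.99e-08). After RA Rpl22 was higher in hom PG by 0.27 (limma adjusted p = 4.93e-05), and Rpl22l1 differed by 0.12 (adjusted p = 0.458). The difference of Rpl22 between the G genotypes in ES (-0.45) lay below the median of the group (-0.11), while Rpl22 fell under RA by 0.81 in hom PG, 0.65 in het G and 0.58 in hom G, near the group's medians. Under RA Rpl22l1 did not move against Rpl22 but was lower too, with differences of -1.09 in hom PG, -0.66 in het G and -1.10 in hom G.

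Other translation genes with TOP mRNAs differed between genotypes after RA in the same directions as the ribosomal proteins. Of 21 such genes, which include Fau, 17 were higher and 0 lower in hom PG after RA (median 0.20), where 2.09% of all genes tested were higher and 1.9% lower. In hom G after RA 0 were higher and 13 lower (median -0.13), against 3.95% and 5.15% of all genes. Eef2, the translocation factor, had the lowest value in G after RA at -0.27, and Eif4a2, an initiation helicase, the highest in PG at 0.35. In PG after RA 1 of 13 RNA polymerase I genes, 3 of 39 snoRNP and processing factors, 0 of 38 large-subunit and 1 of 19 small-subunit assembly factors and 1 of 74 mitochondrial ribosomal protein genes were higher, and 0 of each list were lower. In G after RA 2, 11, 8 and 7 genes of the first 4 lists were higher and 0, 1, 0 and 0 lower, and 0 of the 74 mitochondrial ribosomal protein genes were higher and 2 lower. The PG counts of these lists, and those of the mitochondrial list in G, come to at most 3 genes each. Of the 19 Diamond-Blackfan anaemia genes 18 were higher in PG and 17 lower in G, where 74 and 70 of the 80 ribosomal protein genes were. The lists were not compared with one another by a test.

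**Figure D5:**
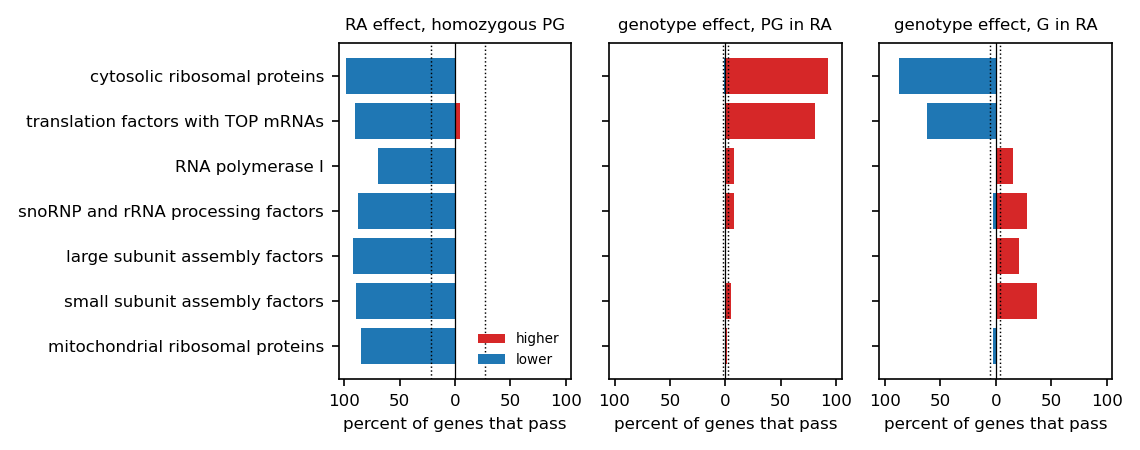
Percent of the genes of each list that were higher (red, right) or lower (blue, left) at a limma adjusted p under 0.05, for RA in hom PG and for hom against het in PG and G after RA; dotted lines mark the percent of all genes tested that were higher and lower. In the genotype comparisons the long bars belong to the ribosomal protein genes (74 of 80 higher in PG, 70 of 80 lower in G) and the TOP translation genes (17 of 21 higher, 13 of 21 lower).

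In the ES state of PG, hom against het samples gave 60 genes higher (15.1% of all genes tested) and 14 lower (17.2%), with a median of 0.44 and a range from -0.47 to 1.39, and with the limit of 0.5 there were 35 higher (6.88%) and 0 lower (6.32%). This comparison rests on the 3 libraries that stood apart. In it, 145 of 325 other genes with a mean rlog of at least 10 were higher and 137 lower, with a median of 0.005. Rpl39 read 9.304, 9.265 and 9.279 in het and 10.697, 10.675 and 10.646 in hom, a difference of 1.39 ± 0.02 (SE; limma adjusted p = 5.61e-14), and Rplp2 had the lowest value, -0.47 ± 0.03. The median fell from 0.644 in the genes of lowest GC content to 0.408 and 0.198 in those of middle and highest, while the same groups after RA had 0.238, 0.237 and 0.251. After removal of the GC trend 8 genes were lower and 67 higher, and after removal of both the GC and length trends 9 were lower and 60 higher. Rps6, lower by -0.26, was at 0.051 after removal of the GC trend. The difference between the genotype effects in RA and ES passed for 67 genes in PG, 24 with a higher effect in RA (12.6% of all genes) and 43 with a lower one (12%), and with the limit of 0.5 for 4 (6.72%) and 19 (7.19%). Its median rose with GC content from -0.4 to -0.206 and 0.057, and the part of GC content in these values was not tested. Of 325 other genes with a mean rlog of at least 10, 131 had a higher effect in RA and 130 a lower one. Most of these other genes thus passed as well.

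Levels of the genes relative to one another were compared per kilobase of mRNA, since rlog values are not scaled by length. Rps12, Rps28, Rplp1 and Rpl23a took the first 4 places in PG RA hom and, in another order, in G ES het, with log2 levels per kilobase of 12.49 to 12.69 and 13.31 to 13.62. Rpl3l was the lowest in both, at 1.262 and 1.79. In G ES het, Rps27l (9.17), Rpl39l (8.622) and Rpl10l (8.36) lay below the group's median of 12.227. Rpl29, at 8.283 in that group, and Rps12 have 26 and 22 intronless copies of at least 95% identity in the genome, more than most of the group, so their places are uncertain. Lengths are those of 1 annotated transcript per gene, which may not be the one expressed.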

How the data were processed

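RNA-seq of 24 samples (TruSeq stranded total RNA libraries after removal of ribosomal RNA) was used, in 2 tables of 12 samples. The authors aligned reads to NCBI37/mm9 with TopHat2 2.1.0, removed duplicates with Picard, counted reads per GENCODE gene by strand with HTSeq 0.6.0 and transformed the counts with DESeq2 1.14.1. The deposited values are rlog values on the log2 scale, transformed separately per table. They hold no counts, so the depth per sample is unknown, no counting interval is given, and low genes are shrunk towards their mean. Removal of duplicates can lower the values of short, abundant mRNAs such as these. Tables of the other assays were not used.

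For each table limma 3.58.1 (R 4.3.3) modelled the 4 group means of all genes that vary (lmFit, then eBayes with trend=TRUE), with Benjamini-Hochberg adjustment over all of them, and a gene passed at an adjusted p under 0.05. The 12-sample fit shares 1 spread over 4 groups. Differences between paralogs used an exact permutation test within strata. Alternatives were the 6 samples of a comparison, limits on the difference, a minimum mean rlog of 3, quantile normalization, median centring, removal of trends with GC content or gene length (lowess span 0.3), a replicate block and leaving out each library.

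Named genes were fixed by rule, namely paralog pairs, stalk, Mdm2-binding, X-linked and reference genes and the 3 largest passing differences in each direction per comparison, besides relatives and gene lists. Rps16-ps2, the pair with Rpl22l1 and the printed promoters of Rpl28, Rpl35a and Rplp2 were chosen after values were seen. The members and lists were chosen with earlier results of these data known. Same-numbered replicates did not deviate together (r -0.033 to 0.0855 over 36 pairs), so numbers were not treated as pairs. Promoter sequences are RefSeq's (GRCm38.p6), and copies and lengths come from the NCBI37 genome and GENCODE vM1 with blastn 2.17.0. Python 3.11.15, numpy 2.4.6, pandas 2.3.3 and matplotlib 3.10.9 were used.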

Additional observations from a re-analysis of the deposited data

Results flagged for a closer look

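In PG the effect of genotype in RA differed from that in ES for 67 of the 80 ribosomal protein genes by the limma interaction term. Of these, 24 had a higher effect in RA (12.6% of all genes tested) and 43 a lower one (12%). The largest values (RA effect minus ES effect, log2) were -1.06 for Rpl39, -0.98 for Rpl39l, -0.97 for Rpl35a, 0.71 for Rplp2, 0.56 for Rps2 and 0.52 for Rps6, and Rps27l had -0.87. All of them rest on the 3 PG ES het libraries that stood apart, whose part in them was not tested. Of 325 other genes with a mean rlog of at least 10, 131 had a higher effect in RA and 130 a lower one. Passing this term was thus common among highly expressed genes and not particular to the ribosomal protein genes.

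In G the same term passed for 22 genes, 21 with a lower effect in RA (1.56% of all genes tested) and 1 with a higher one (1.78%). Rpl39 had -0.37, Rps20 -0.34, Rpl10 -0.33 and Rps16 0.295. Of 348 other genes with a mean rlog of at least 10, 42 had a higher effect in RA and 53 a lower one. The interaction was picked out because it is a direct test of the difference between the effects in the ES and RA states.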

How the results depend on the processing

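The direction of the median over the 80 genes was kept in all 10 comparisons under every alternative that was run, and its size depended on the scaling. Under RA, the medians after quantile normalization were -0.271 in het PG, -0.347 in hom PG, -0.261 in het G and -0.371 in hom G. With median centring they were -0.597, -0.768, -0.7 and -0.783, after removal of the GC trend -0.583, -0.747, -0.638 and -0.725, of the length trend -0.345, -0.551, -0.467 and -0.525, and of both -0.47, -0.519, -0.438 and -0.526. Genes higher in RA in het PG numbered 14 (quantile), 5 (GC), 13 (length) and 15 (both), in hom PG 1 (quantile), in het G 2 (quantile) and in hom G 1 (quantile) and 1 (length). With limits of 0.5 on the log2 difference or 1.5 on the fold, the genes lower in het PG were 45 and 38 and those higher 0 and 0, and the fold limit left 42 lower in het G.

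Between genotypes, the PG ES median was 0.319 (quantile), 0.492 (GC), 0.399 (length) and 0.317 (both), with 8 (GC) and 9 (both) genes lower, and the limits left 35 and 30 higher and 0 and 0 lower. For PG in RA the median was 0.189 (quantile), 2 (length) and 2 (both) were lower, and the limits left 1 and 1 higher and 0 and 0 lower. For G in ES the median was -0.075 (quantile) with 26 lower, and the limits left 0 in each direction. For G in RA the median was -0.158 (quantile), -0.177 (centring), -0.165 (length) and -0.156 (both), the genes higher were 0 in the 6-sample fit and 2 each with the minimum mean, centring, GC, length or both, and the limits left 0 in each direction. For the PG interaction the median was -0.106 (quantile) and -0.264 (GC), and the limits left 4 and 1 higher and 19 and 13 lower. For the G interaction the median was -0.045 (length) and -0.052 (both), with 2 (quantile), 5 (length) and 5 (both) higher, and the limits left 0 in each direction. Small differences cannot pass the limits by their construction, and the cause of the other shifts was not tested.

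Leaving out 1 library at a time, the medians ran from -0.573 to -0.539 (RA in het PG), -0.734 to -0.708 (RA in hom PG), -0.624 to -0.597 (RA in het G) and -0.179 to -0.131 (PG interaction), and the genes higher for G in RA from 0 to 2. The genes lower for G in ES ran from 34 to 46.

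The 182 values of named genes were checked under 35 alternatives, each where it applied. A call was kept 3712 times and lost 282 times, 205 of them under limits on the difference or fold. The sign changed 21 times. For RA in het PG these were Rpl10 (0.17 quantile, 0.004 length), Rps27 (0.085 quantile, 0.148 length, 0.149 both), Rps4x (0.046 quantile), Rpl5 (0.23 quantile) and Rpl23 (0.268 quantile, 0.065 length, 0.073 both). After quantile normalization Rps6 had 0.062 for RA in hom PG, 0.017 in het G and 0.11 in hom G, Rpl10 0.058 in het G, and Rpsa 0.058 for RA in hom G and 0.064 for G in RA. For PG in ES Rps6 had 0.051 (GC), and for the PG interaction Rpl11 had -0.057 (GC) and -0.042 (both) and Rplp0 -0.162 (GC) and -0.095 (both).

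The replicate block, for numbers that do not pair the samples, left the RA counts as they were and gave 74 higher and 1 lower for PG in RA, 42 lower for G in ES and 70 lower for G in RA; Rps18 in the PG interaction (-0.084, adjusted p = 0.0652 in limma) and Rpl11 for G in ES (-0.106, adjusted p = 0.0536) lost their call.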
